A study of Arabidopsis thaliana with 24 samples.

Results

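AT2G25450 is an Arabidopsis thaliana gene for a dioxygenase of glucosinolate metabolism, and it was chosen by its measured signal, which was low in the phyB mutant alone. It is 1 of 13286 genes that the probe table named singly, and exactly 1 probe set was annotated to it. The values that chose it are the signals of all 8 groups, so its levels by genotype are given as a description with no test, and tests are kept for its response to light. Each signal is the MAS5 intensity of a probe set, a group of short oligonucleotides for 1 transcript, on the linear scale the authors deposited.

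Glucosinolates are sulfur-rich defence compounds of the cabbage order, made from amino acids such as methionine and tryptophan. Chain elongation, formation of the core structure and modification of the side chain follow each other, and myrosinases release toxic products when tissue is damaged. The AT2G25450 protein, also called GSL-OH, is an oxoglutarate-dependent dioxygenase that hydroxylates butenyl glucosinolate to progoitrin. It acts late, on the finished molecule.

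The study measured seedlings at 4 days, each array from total RNA of root, hypocotyl and cotyledon combined. Seedlings of 4 genotypes, the phyAphyB double mutant, the phyA mutant, the phyB mutant and wild type, received red light of 680 nm at a fluence rate of 8 µmol m-2 s-1, lasting 1 h, or were kept in the dark. Phytochromes A and B are members of the family of photoreceptors that sense red and far-red light. There were 3 biological replicates in each of the 8 groups, 24 arrays in all, and p-values measure the spread between them. The labels give no alleles or strains, so it is not known from them whether the phyB single mutant and the double mutant carry the same phyB allele.

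Median signals lay between 169.8 and 195.1, and the 40th percentile, used as a guide to dim signals, between 97.4 and 127.2. The arrays of each group correlated with each other at 0.954 to 0.981 on the log2 scale. Replicates 2 and 3 of dark phyA stood apart in their 25S rRNA control, at 10508 and 13574, where the remaining 22 arrays had 46.8 to 450. Their AT2G25450 signals, 9551 and 9993, lay on either side of the 9891 of dark phyA replicate 1. Tissue markers could be checked for only a few genes: 8 of 25 had a named probe set, and none of those read 0 on any array.

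In the phyB mutant AT2G25450 was low in both light conditions. Its signals after red light were 580, 503 and 485 in phyB seedlings, against 13011, 10489 and 12649 in wild type seedlings. In the dark they were 426, 2133 and 530 in phyB seedlings, against 10961, 10109 and 9959 in wild type seedlings. No phyB array overlapped any other array of the series: the highest phyB value, 2133, lay 4.46-fold below the lowest of the other 18, which was 9507.

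The double mutant was not low. Its 3 signals were 10483, 10169 and 9507 after red light and 10151, 10561 and 11334 in the dark. The phyA mutant had 11051, 10662 and 15739 after red light and 9891, 9551 and 9993 in the dark. Among the 18 arrays that were not phyB, the highest signal was 1.66-fold the lowest.

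**Figure D1:**
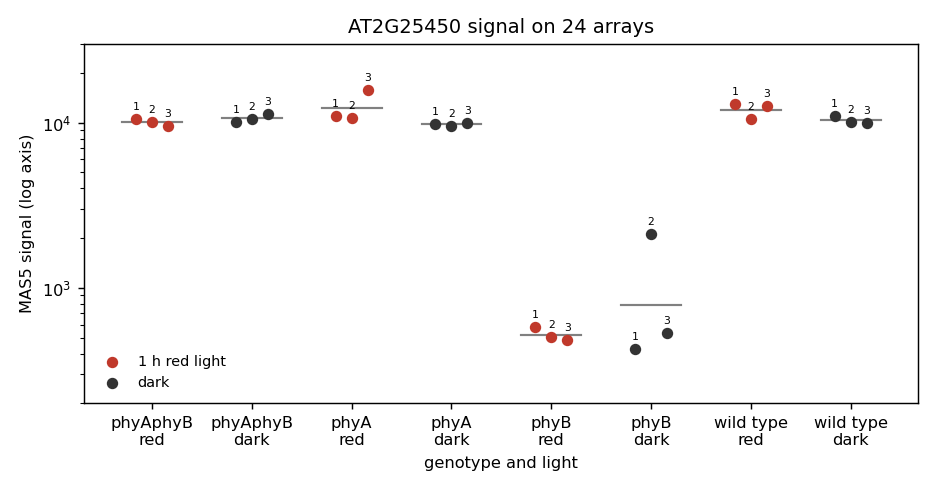
MAS5 signal of AT2G25450 (log axis) on each of the 24 arrays, by genotype and light. Points are arrays numbered by replicate and grey lines are geometric means of 3. The 6 phyB arrays sit between 426 and 2133, below all 18 others at 9507 to 15739.

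By geometric mean, the red phyB signal was 23.0-fold below that of red wild type, 23.6-fold below that of red phyA and 19.3-fold below that of red phyAphyB. In the dark the phyB signal was 13.2-fold below wild type, 12.5-fold below phyA and 13.6-fold below phyAphyB. Dark phyB replicate 2 decided the size of the dark values. Without it they were 21.7-fold against wild type, 20.6-fold against phyA and 22.5-fold against phyAphyB.

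Ordered by mean signal, red phyA seedlings came first at 12484 ± 2826 (SD, n = 3 here and below), followed by red wild type at 12050 ± 1363, dark phyAphyB at 10682 ± 600 and dark wild type at 10343 ± 540. Red phyAphyB at 10053 ± 498 and dark phyA at 9812 ± 231 came next. These 6 means lay close together, and the arrays of groups next to each other in that order overlapped. The step to dark phyB at 1030 ± 957 and red phyB at 523 ± 50.8 was larger than any spread, while dark and red phyB did not differ beyond theirs.

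The remaining phyB signal was not at the dim end of the arrays. All 6 phyB values exceeded the 40th percentile of their arrays. Within its own array, a rank that does not depend on scaling, the probe set stood at the 67.6th to 93rd percentile on the phyB arrays and at the 99.2nd to 99.6th percentile on the other 18. Without dark phyB replicate 2 the highest phyB rank was the 74.2nd percentile. Whether what is left is transcript of the gene or other RNA binding to its probes was not tested.

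Whether red light changed AT2G25450 is a question the choice of the gene did not use. The limma fit over 15085 probe sets and 24 arrays, adjusted by Benjamini-Hochberg, called no change of the gene in any genotype. Expressed as log2 red minus dark, the response was -0.09 ± 0.32 in phyAphyB (SE, adjusted p = 1), 0.32 ± 0.32 in phyA (adjusted p = 0.67), -0.59 ± 0.32 in phyB (adjusted p = 0.39) and 0.22 ± 0.32 in wild type (adjusted p = 0.81). In phyA the 3 red arrays lay above the 3 dark ones, and in the other genotypes red and dark arrays overlapped.

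The intervals show what the arrays could and could not resolve. At 95% the ratio of red to dark signal in wild type lay between 0.734 and 1.84, in phyA between 0.792 and 1.98, in phyAphyB between 0.595 and 1.49 and in phyB between 0.42 and 1.05. Every interval uses the same estimate of spread, shared by all 8 groups. Dark phyB was by far the most variable of them, with an SD of log2 signal of 1.26. In the other groups that SD ran from 0.0342 in dark phyA to 0.31 in red phyA. The width of the intervals outside phyB therefore reflects dark phyB more than their own arrays. Changes inside these bounds were not resolved by this fit of 3 arrays a group. For scale, red light led to calls for 0.305% of all tested probe sets in phyAphyB (0.0265% higher and 0.278% lower) and 4.34% in phyA (2.41% higher and 1.93% lower). In phyB it was 5.75% (3.58% higher and 2.17% lower), and in wild type 6.45% (4.06% higher and 2.39% lower).

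The phyB response turned on single dark arrays. Without dark phyB replicate 2 it was 0.13 (adjusted p = 0.79), and without dark phyB replicate 1 it was -1.03 (adjusted p = 0.043), the sole call among 24 fits that each left out 1 array. The direction in phyB is therefore not settled by these data.

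The response was also compared between genotypes directly. Relative to wild type it differed by -0.30 ± 0.45 in phyAphyB (adjusted p = 0.94), by 0.11 ± 0.45 in phyA (adjusted p = 0.95) and by -0.81 ± 0.45 in phyB (adjusted p = 1), none of which passed. The 95% interval of the phyB difference ran from -1.74 to 0.13. Over all probe sets 1.87% were called for phyAphyB (0.351% higher and 1.52% lower), 0.663% for phyA (0.186% higher and 0.477% lower) and 0% for phyB, where limma called 0 and 604 of 15085 had an unadjusted p under 0.05.

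**Figure D2:**
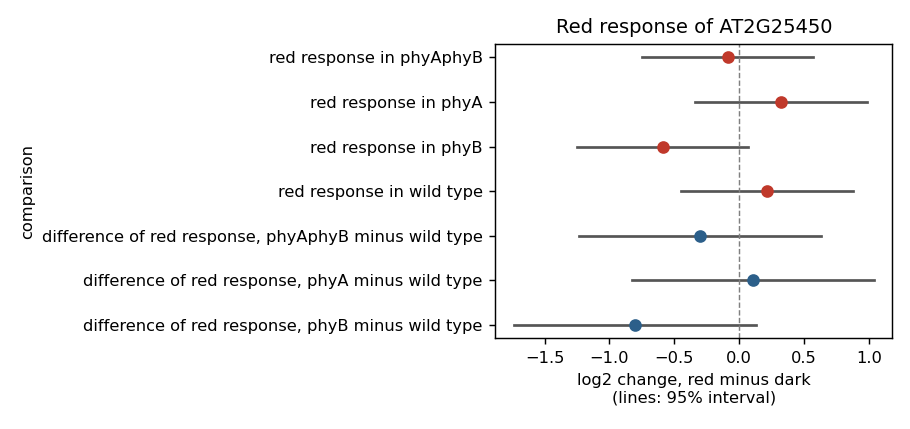
Red response of AT2G25450 as log2 red minus dark for each genotype (red points) and its difference from wild type for each mutant (blue points), with 95% intervals from limma. All 7 intervals include 0, and those of phyB reach lowest, to -1.25 and -1.74.

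Genes of the same pathway were taken from 8 lists of glucosinolate synthesis, regulation, transport, breakdown and sulfate activation. Of their 78 genes 13 had a named probe set and 10 were bright enough to test, so most of the pathway, the indolic branch entirely, was not analysed here. Averaged over both light conditions, 2 of the 10 were higher in phyB than in wild type, 2 were lower and 6 did not pass. Over all probe sets 14.4% were called in that comparison (7.15% higher and 7.25% lower), and the median log2 difference was 0.02 for the 10 genes and 0.01 for all probe sets.

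UGT74B1, the glucosyltransferase that adds the sugar to the forming core structure, was higher in phyB. Its signals were 197 to 367 on the 6 phyB arrays with a median of 249, against 83.2 to 115 with a median of 98 on the 6 wild type arrays. The log2 difference was 1.38 ± 0.17 (limma adjusted p = 1.22e-06), and in phyAphyB it was -0.13 ± 0.17, which did not pass. In phyA it was 0.53 ± 0.17, just short of passing (adjusted p = 0.058), and the phyA signals, 105 to 212, overlapped those of phyB. The dimmest of these signals lay under the 40th percentile, so the fold is uncertain.

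MYC3, a basic helix-loop-helix factor that works with MYB factors to activate glucosinolate genes, was also higher in phyB. It read 942 to 1351 with a median of 1177 on phyB arrays, against 494 to 666 with a median of 611 on wild type arrays, a log2 difference of 0.96 ± 0.11 (adjusted p = 5.65e-07). All phyB arrays were above all the others, whose highest value was 885. In phyAphyB the difference from wild type was 0.08 ± 0.11 and did not pass. MYC4, the only other tested regulator, went the other way in phyB without passing (log2 -0.42 ± 0.20, adjusted p = 0.175). It was lower in phyAphyB (log2 -1.58 ± 0.20, adjusted p = 1.18e-06), at dim signals of 50.8 to 80.9.

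Both genes that were lower in phyB handle sulfur or break glucosinolates down. APS4, an ATP sulfurylase that activates sulfate, read 4263 to 5275 with a median of 4747 on phyB arrays, against 6307 to 9087 with a median of 7599 on wild type arrays (log2 -0.64 ± 0.10, adjusted p = 6.88e-05). BGLU28, a beta-glucosidase linked to glucosinolate breakdown under sulfur shortage, read 78.8 to 108 on phyB arrays, against 121 to 197 on wild type arrays (log2 -0.63 ± 0.16, adjusted p = 0.009). Both were also lower in phyAphyB, where AT2G25450 had not been low, by log2 values of -0.58 ± 0.10 for APS4 (adjusted p = 0.000134) and -1.38 ± 0.16 for BGLU28 (adjusted p = 5.44e-07). BGLU28 is dim, and it missed the threshold when dark arrays (adjusted p = 0.086) or red arrays (adjusted p = 0.15) were compared alone.

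Of the other genes that modify side chains, AOP1 and AOP3 had a named probe set. AOP1, a dioxygenase of the AOP family, read 493 to 582 on phyB arrays and 411 to 627 on wild type arrays, with a log2 difference of 0.07 ± 0.10 that did not pass (adjusted p = 0.72). In phyAphyB it was higher, at 814 to 983 (log2 0.83 ± 0.10, adjusted p = 3.55e-07). AOP3, which makes hydroxyalkyl glucosinolates, was too dim to test, at 4.6 to 68.1 on phyB arrays and 22.1 to 69.9 on wild type arrays, all under the 40th percentile.

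In the phyAphyB mutant 2 of the 10 genes were higher, 3 lower and 5 did not pass, beside 24% of all probe sets (12.3% higher and 11.8% lower). In phyA 1 was higher and 9 did not pass, beside 6.06% (3.21% higher and 2.85% lower). These comparisons share their wild type arrays with that of phyB, and the difference between them was not tested. No gene of the 10 had all phyB arrays below all the rest, an order that 1.05% of all tested probe sets had.

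**Figure D3:**
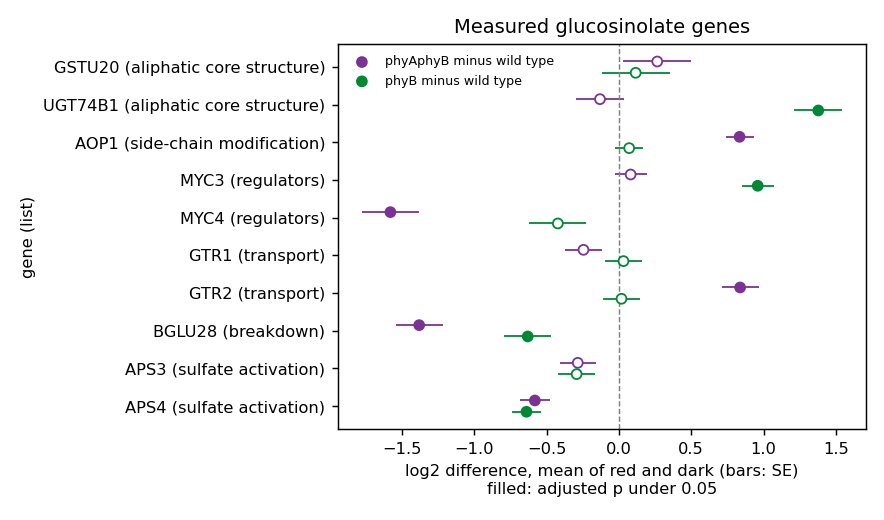
Log2 difference from wild type, averaged over red and dark arrays, of the 10 tested glucosinolate genes in phyAphyB (purple) and phyB (green), with SE from limma. Filled points passed at an adjusted p under 0.05. UGT74B1 and MYC3 are higher in phyB, and APS4 and BGLU28 are lower in both mutants.

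With red light, 1 of the 10 genes was called in wild type, beside 6.45% of all probe sets. GTR1, a plasma membrane importer of glucosinolates, read 538, 552 and 505 on the red wild type arrays, against 219, 224 and 153 on the dark ones (log2 1.44 ± 0.18, adjusted p = 2.89e-06), with no overlap. It rose in phyB as well, by 1.18 (adjusted p = 6.03e-05), and in phyA, by 0.65 (adjusted p = 0.035). In phyAphyB its response was 0.19 and did not pass, and the difference of that response from wild type was -1.25 ± 0.25 (adjusted p = 0.005). Between genotypes, GTR1 differed from wild type by 0.03 ± 0.13 in phyB and did not pass.

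Some markers of tissue and growth state also differed between phyB and wild type, and not in phyB alone. Of 7 tested markers 1 was higher, 2 were lower and 4 did not pass in phyB, which makes 42.9% called beside 14.4% of all probe sets. Their log2 differences lay between -0.40 and 0.39, where that of AT2G25450 was -4.12. The 2 lower markers, LHCB4.1 (-0.40) and ICL (-0.39), were also lower in phyAphyB, at -0.66 and -0.75. LHCB4.1 was lower in phyA too, at -0.32. EXPA8, the higher marker (0.39), did not pass in phyAphyB, at 0.20. The summed signal of 2 root markers was 99.6 to 247 on phyB arrays and 184 to 244 on wild type arrays. That of 3 photosynthesis markers was 14207 to 19801 in phyB and 18880 to 23284 in wild type, and ICL, the single measured marker of seed reserve use, read 11675 to 14414 in phyB and 14720 to 19644 in wild type. The sum of 2 markers of hypocotyl growth in the dark was 5217 to 8389 in phyB and 4006 to 5849 in wild type. On all 18 arrays of other genotypes these signals ran, in that order, 97.1 to 244, 11472 to 23284, 8497 to 22189 and 4006 to 7531.5. The hypocotyl sum was mostly EXPA8, whose dark phyB mean was 6459, where that of IAA29, the other marker in it, was 697. IAA29 alone was not higher in phyB, with a log2 difference from wild type of -0.16 ± 0.14 that did not pass (limma adjusted p = 0.56). In whole seedlings, fewer cells of a type and less RNA per cell cannot be told apart. The part of these shifts in the AT2G25450 level was not tested.

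How common such an order of arrays is can be counted. Among 15085 tested probe sets, 159 (1.05%) had all 6 phyB arrays below the other 18 and 152 (1.01%) had all 6 above. Of these, 13 were lower and 14 higher by at least 4-fold. The log2 gap of AT2G25450 between the phyB groups and the mean of the other 6 groups was -4.08. The same count gave 188 below and 233 above for phyAphyB, 2 below and 12 above for phyA and 17 below and 10 above for wild type.

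The named genes of nearest pattern were found by the root mean square distance between 8 group means of log2 signal, each gene centred on its own mean. AT5G03350, a legume lectin family gene, was nearest at 0.36, followed by AT5G23830, a lipid recognition domain gene, at 0.61. SBT3.12, a subtilisin-like protease gene, stood at 0.66, LUL1, a RING-type ubiquitin ligase gene, at 0.67, AT5G13520, a peptidase family gene, at 0.67 and AT4G36700, a cupin family gene, at 0.68. All 6 had every phyB array below the other 18, and being chosen for that they support nothing further. An unnamed probe set was nearer still, at 0.22.

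AT5G23830 read 5.2 to 113 on phyB arrays with a median of 9.95, against 452 to 811 with a median of 614 on the other 18. SBT3.12 read 35.9 to 87.4 in phyB, against 241 to 608 elsewhere, and LUL1 read 22.2 to 108, against 236 to 570. AT5G03350, AT5G13520 and AT4G36700 had medians of 141, 166 and 141 over the other 18 arrays and phyB values from 4 to 62.5. The phyB values of these genes lay under the 40th percentile of their arrays, except that of AT5G23830 on dark phyB replicate 2, so the size of all 6 gaps is uncertain.

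**Figure D4:**
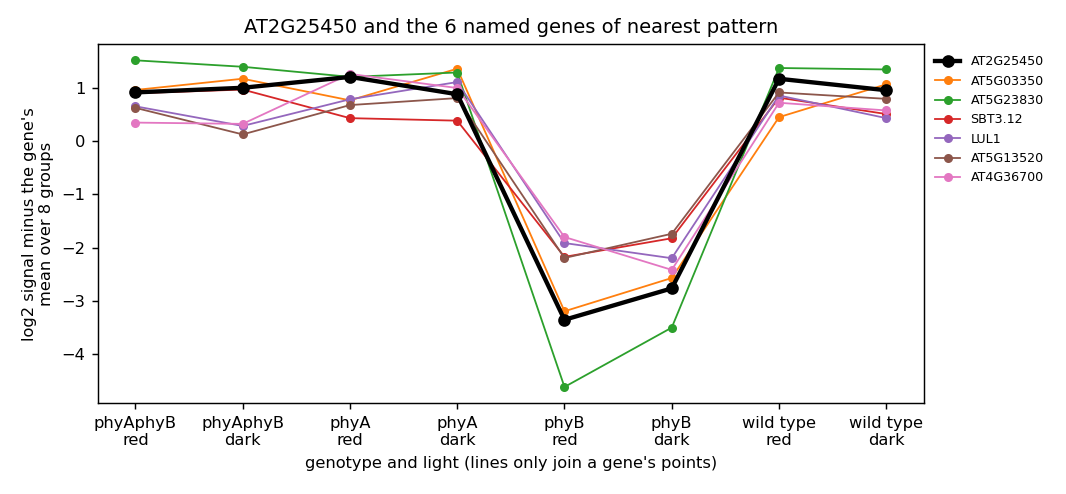
Log2 signal of AT2G25450 (black) and the 6 named genes of nearest pattern in each group, minus the gene's own mean over the 8 groups. Points are means of 3 arrays. Every gene is lowest in the red and dark phyB groups and above its own mean in the other 6, and AT5G23830 reaches lowest.

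Dark phyB replicate 2 stood apart for AT2G25450. Its 2133 was 4.23-fold the mean of the other 5 phyB arrays, 505 ± 56.9 (SD, n = 5). The question of whether other genes placed this array likewise was asked after its value had been seen. On a linear scale from 0% at the mean of the other phyB arrays to 100% at the mean of the 18 arrays of other genotypes, it lay at 15.7%, while the other phyB arrays lay between -0.95% and 0.91%.

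The same array was displaced the same way for similar probe sets. There were 6 others with all phyB arrays lower, a gap of at least 4-fold and a mean above every array median elsewhere. Dark phyB replicate 2 lay at 12.1 to 29.2% for them, above 10% in 6 of 6, with AT5G23830 at 16.6%, LUL1 at 17.3% and SBT3.12 at 12.1%. On the other 5 phyB arrays the medians ran from -2.76 to 1.74% and at most 1 of 6 exceeded 10%. Each of those arrays was set against the mean of the other 4, so together their places average close to 0 by construction, and dark phyB replicate 2 entered none of these means.

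At a gap of at least 2-fold the displacement was less uniform. Of 70 such probe sets 42 exceeded 10% on dark phyB replicate 2, against 10 to 22 on each of the others. Of 45 probe sets higher in phyB by at least 2-fold, 26 exceeded 10% toward the other genotypes on this array and 10 to 24 on the others. Of 10 that were higher by at least 4-fold, 4 exceeded 10% on this array, with a median of 9.54%, against 2 to 6 on the others, where red phyB replicate 2 had 6 and a median of 11%. Among probe sets higher in phyB by that much, dark phyB replicate 2 therefore did not stand apart. Its correlation with the other dark phyB arrays was 0.974, within the range of all arrays, and its 25S rRNA control read 401. Its ratio of 3' to 5' GAPDH control signal, a sign of RNA quality, was 2.65, the highest of the 24 arrays, against 1.28 and 2.02 on the other dark phyB arrays. Red wild type replicate 3 was close to it, at 2.61. The same ratio for the Actin control was 2.5 on dark phyB replicate 2, against 1.84 and 1.95 on the other dark phyB arrays. Dark phyA replicate 2 had a higher Actin ratio, 3.09. The part of RNA quality in the displacement was not tested.

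**Figure D5:**
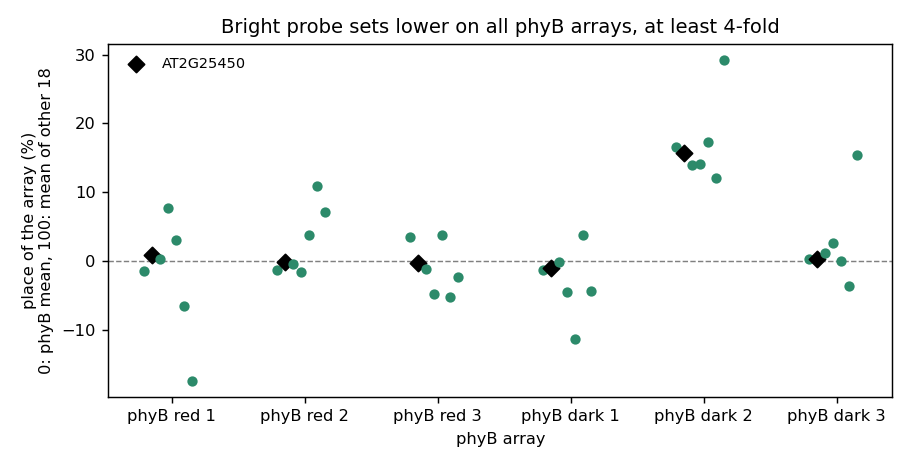
Place of each phyB array, in percent of the way from the mean of the other phyB arrays (0, always leaving out dark replicate 2) to the mean of the 18 arrays of other genotypes (100), for AT2G25450 (diamonds) and the 6 other bright probe sets lower in phyB by at least 4-fold (dots). On dark phyB replicate 2 all 7 lie between 12.1 and 29.2.

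AT2G25450 lies on chromosome 2, the chromosome of PHYB, with 702 protein-coding genes of the TAIR10.1 table between them. No probe set was named for PHYB alone, so the mutation was not checked here. The 5 nearest tested genes on each side, up to 17 genes away, had 0 of 10 with all phyB arrays below the rest, beside 1.05% of all probe sets. In phyB, 1 of the 10 was higher, 1 was lower and 8 did not pass, a share near the 14.4% of all probe sets called (7.15% higher and 7.25% lower), with log2 differences from -0.60 to 0.75.

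AT2G25520, 8 genes away, was higher in phyB. It read 3533 to 4385 on phyB arrays with a median of 3926, against 1868 to 2862 with a median of 2420 on the other 18. Its log2 difference from wild type was 0.75 ± 0.09 (adjusted p = 1.1e-06), and in phyAphyB it was 0.12 ± 0.09, which did not pass. Its phyB arrays were apart from the rest in the opposite direction to those of AT2G25450. AT2G25350, 9 genes away on the other side, read 50.7 to 72.4 on phyB arrays, against 70.9 to 125 on wild type arrays, a difference of -0.60 ± 0.16 (adjusted p = 0.014) at dim signals. It missed the threshold without dark wild type replicate 2 (adjusted p = 0.053), with the compared groups alone, and on dark arrays alone (log2 -0.42, adjusted p = 0.36).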

How the data were processed

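The deposited values are intensity values, linear MAS5 signals of each probe set, made by the authors with MAS5 (version not given), per the submitters' processing notes. Trimmed means (2% at each end) of 500.038 to 500.044 show that arrays were already scaled, and this was kept. Such scaling assumes equal mean signal in all samples. Detection calls and scanner files were not used here.

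The arrays hold 22746 probe sets besides 64 controls. A single gene was named for 13513 of them, several for 503 and none for 8730. 77 gene identifiers did not match the TAIR10.1 table, which was used for names and gene order. No probe build was given, so no coordinates are printed. Probe sets above the 40th percentile of their array on at least 3 arrays were tested (15085), on log2 signal without a pseudocount, in a two-sided limma fit (version 3.58.1, R 4.3.3) over all 8 groups, with an intensity trend in eBayes. A call is an adjusted p under 0.05. The procedure was tested on simulated data.

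AT2G25450, the lists and the tests were chosen with earlier results of these data known. Named were list genes called in phyB or in the wild type red response, all measured side-chain genes, 6 genes of nearest pattern and 5 tested neighbours on each side. MYC4 was added outside this rule, beside MYC3. Proteins most alike in sequence were to be named as well, and were not analysed here. The brightest probe set stands for a gene that has more than 1. Replicate numbers were not used to pair samples in the main fit. Deviations of same-numbered arrays correlated at -0.19 to 0.18 over 30 pairs, 6 of them above 0.1. Such low correlations cannot show whether same-numbered samples were grown or handled together.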

Additional observations from a re-analysis of the deposited data

Results flagged for a closer look

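The 25S ribosomal RNA control probe set, which no comparison uses, read 10507.9 on dark phyA replicate 2 and 13573.9 on dark phyA replicate 3, above the highest wild type value of 294.7. Without both arrays the phyA response of AT2G25450 to red light still did not pass, with a log2 value of 0.31 (adjusted p = 0.80), and its gap in phyB was -4.08. That fit leaves 1 dark phyA array, which is assumed to vary like the arrays of the other groups.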

How the results depend on the processing

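The gap of AT2G25450 between phyB and the other 6 groups (log2 -4.08) was -4.04 with a pseudocount of 16, -4.07 after quantile scaling and -4.08 without dark phyA replicates 2 and 3, and lay between -4.44 and -3.86 when 1 array at a time was left out. Testing all probe sets, a stricter filter at the 60th percentile, no intensity trend and the replicate number as a block cannot move a difference of group means. The 7 light comparisons kept their side of the threshold under all of these and with the compared groups alone. The difference of the phyA response from wild type, 0.11, was -0.0271 after quantile normalization (adjusted p = 0.99). With 1 array left out at a time, the responses ranged from -0.12 to -0.04 in phyAphyB, 0.15 to 0.43 in phyA, -1.03 to 0.13 in phyB and 0.16 to 0.31 in wild type, and the differences from wild type from -0.40 to -0.24 in phyAphyB, -0.0692 to 0.21 in phyA and -1.25 to -0.08 in phyB. With the replicate number as a block, the phyB response was -0.59 and no call of AT2G25450 changed.

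Probe sets called between phyA and wild type (914) became 608 from the compared groups alone, 418 without dark phyA replicates 2 and 3, 390 on red arrays alone and 575 to 1401 with 1 array left out, where the array was dark phyA replicate 1 (1401) or 2 (575), red phyA replicate 1 (596) or red wild type replicate 3 (594). Those between phyB and wild type (2171) became 1090 on dark and 1061 on red arrays alone, and those between phyAphyB and wild type (3627) became 1694 on dark arrays alone. Of the 10 glucosinolate genes, calls under the 60th percentile filter, which tests fewer genes, were 2 in phyB and 3 in phyAphyB. In phyA, 2 were called with no intensity trend, and 1 to 2 with 1 array left out. The AOP1 difference in phyB was -0.0212 without red wild type replicate 3. The phyB gaps of AT5G03350 and AT5G23830 were -2.48 and -4.18 with the pseudocount. The causes of the other shifts were not tested. The 3 arrays a group limit precision, and detection calls, which would bear on dim genes, were not used here.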

Other observations

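Genes with the order of arrays seen for AT2G25450 were not spread over the chromosomes as the tested genes were. Chromosome 5 held 36 of the 82 named probe sets with all phyB arrays lower (43.9%) and 52 of the 87 with all phyB arrays higher (59.8%), where it held 24% of the 8157 tested probe sets with a gene. Chromosome 2, where AT2G25450 and PHYB lie, held 9 of the 82 (11%) and 8 of the 87 (9.2%), where it held 14.9% of those tested. This was counted after the values had been seen and was not tested.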
